A study of Brassica rapa subsp. pekinensis with 6 samples.

Results

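The NAC transcription factors of Chinese cabbage leaves were followed across a change of ploidy. Genes were taken as NAC genes when the protein description in the authors' deposited table named a NAC domain-containing protein, a NAC transcription factor, a NAC protein with a transmembrane motif, or a CUP-SHAPED COTYLEDON protein. This gave 70 of the 13225 genes listed. RNA-seq libraries were made from total RNA of leaves of Brassica rapa subsp. pekinensis. The leaves were mature, sat on the main stem lower than any branch, and were picked at bolting. The autotetraploid group, with 4 copies of 1 genome, had 3 libraries, and the doubled haploid group, whose 2 genome copies are identical, also had 3. Plants of both kinds came from the doubled haploid line 'FT' and were grown alike, so the comparison rests on 1 genetic background. The labels number the libraries within a group and do not say whether each came from a separate plant, so p-values measure only the spread between these libraries, which may be technical.

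NAC proteins form a large plant-specific family, named after NAM, ATAF and CUC, that share a DNA-binding domain at the N-terminus and carry variable activation regions behind it. In Arabidopsis some members switch on leaf senescence or answer drought, abscisic acid and jasmonate. Others are held in membranes until stress releases them, and a further set draws the boundaries between organs or builds the walls of xylem vessels. Below, each gene is called by its best protein hit, in nearly all cases from Arabidopsis (68 of 70), and the roles given are those of the Arabidopsis protein.

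Most listed NAC genes were lower in autotetraploid leaves. Of the 70, 56 fell and 14 rose, whereas 50.0% of all listed genes were lower and 50.0% higher. The table holds only genes that passed the authors' test at an adjusted p under 0.05, which were 37.8% of the 34980 genes tested. NAC genes that did not pass were not analysed here, so the share of the family that changed is not known. The table gives 1 mean per group, so most genes have no SD, and the authors' adjusted p is the only test over all of them. At a change of at least 2-fold, 39 NAC genes were lower and 4 higher, where the listed genes as a whole had 23.0% and 16.6%. The median NAC gene was 2.19-fold lower, a log2 ratio of -1.13, against a median log2 ratio of 0.16 over all listed genes. Summed over the family, the authors' means came to 26950.4 normalised reads (autotetraploid) and 52210.2 (doubled haploid), a total 1.94-fold lower. Falls were also larger than rises, with medians of 2.72-fold and 1.62-fold, whereas falls and rises over all listed genes had medians of 1.88-fold and 1.64-fold.

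**Figure D1:**
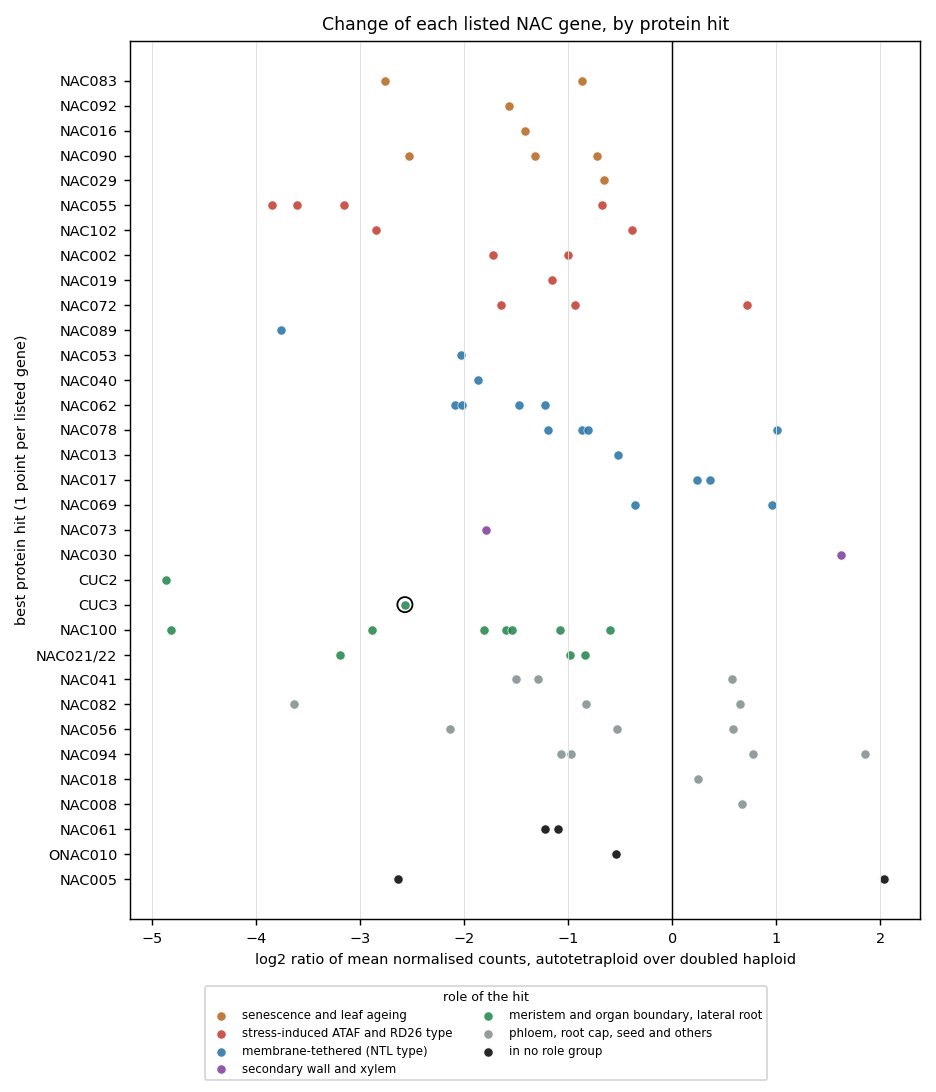
Log2 ratio of the authors' mean normalised counts, autotetraploid over doubled haploid (x axis), for each of 70 NAC genes, by best protein hit (y axis) and coloured by the role of the hit. The ringed CUC3 point is a bound, since the gene was listed at 0 in autotetraploid leaves. Of all points, 56 lie left of 0, among them every point of the senescence and of the boundary groups. NAC042 genes, which were planned for the senescence group and rose, carry another name and are not shown.

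Falls outnumbered rises at every level of counts. Among NAC genes with a mean of at least 1000 normalised reads in the higher group, 14 fell and 2 rose, where 44.1% of all listed genes at that level were lower. Between 100 and 1000, 24 fell and 7 rose, where 50.4% of all listed genes were lower. Between 20 and 100, 12 fell and 4 rose, against 56.1% lower, and under 20, 6 fell and 1 rose, against 60.9% lower. Listed genes with low counts thus leaned to falls as a whole. Listed changes were larger where counts were low, so the size of a change was read against its level. The median change in either direction was 7.38-fold for NAC genes under 20 and 6.40-fold for all listed genes there. At 1000 or more the values were 2.11-fold and 1.61-fold.

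**Figure D2:**
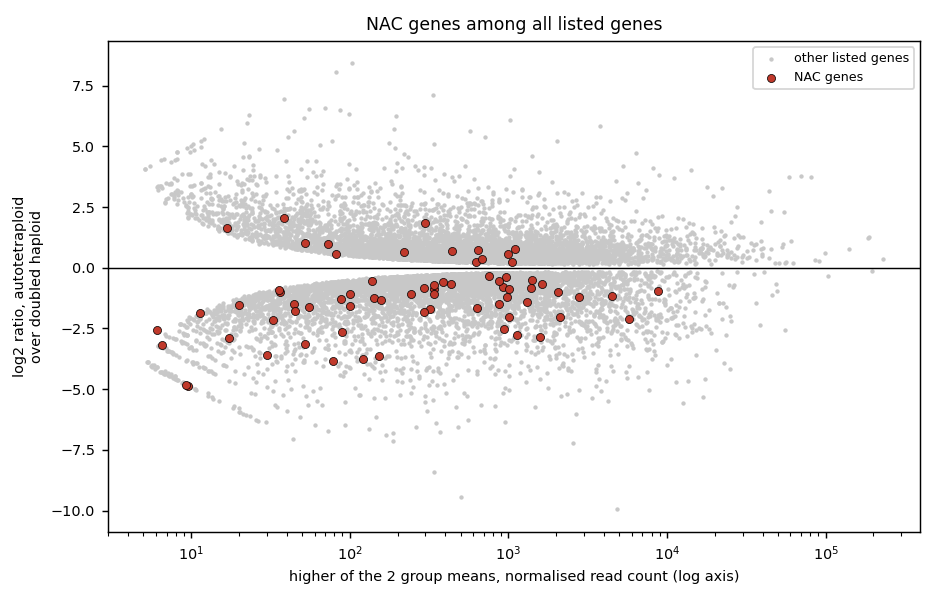
Log2 ratio, autotetraploid over doubled haploid (y axis), against the higher of the authors' group means (x axis, log scale) for all listed genes above 0 in both groups (grey) and for 70 NAC genes (red, with CUC3 at its bound). NAC points lie mostly under 0 across the whole range of counts, and the empty band around 0 widens where counts are low.

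Depth and tissue were checked once for the series. The listed genes summed to 15158622 normalised reads (autotetraploid) and 14534170 (doubled haploid). Size factors per library ran from 0.926 to 1.01 (autotetraploid) and from 0.917 to 1.12 (doubled haploid). The number of reads in each library was not analysed here. Leaf mesophyll genes (photosystem, light-harvesting and Rubisco) rose in 84 of 91 listed cases, with sums of 1801928 (autotetraploid) and 1139163 (doubled haploid). Genes of other tissue were picked by name only. Of 25 genes with agamous-like, sepallata or pollen-specific names, 20 fell, with sums of 3705 (autotetraploid) and 5309 (doubled haploid). Most of these are agamous-like MADS-box genes. Both genes with a root name, homologs of ROOT HAIR DEFECTIVE 3, fell, with sums of 658 (autotetraploid) and 1054 (doubled haploid). Whether these genes mark flower, pollen or root tissue was not checked. Xylem genes split into 3 rises and 3 falls, with sums of 213 (autotetraploid) and 288 (doubled haploid). A pair of laccase 5 genes and the gene for AGL80, a MADS-box protein, were listed at 0 in autotetraploid leaves. The part of these differences in the NAC result was not tested. In whole leaves, fewer cells of a type and less RNA per cell cannot be told apart.

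The genes of the stress-induced ATAF and RD26 type fell in 11 of 12 cases, with a median 2.64-fold lower. NAC102, a relative of ATAF1, had 2 listed copies. The first (evm.TU.BraA06003620) had authors' means of 220.2 (autotetraploid) and 1580.0 (doubled haploid), 7.18-fold lower, with an adjusted p of 2.11e-190 in the authors' deposited table. Its other copy (evm.TU.BraA02004398) was 1.31-fold lower, with means of 740.4 (autotetraploid) and 970.5 (doubled haploid). NAC002 (ATAF1), known from responses to drought and abscisic acid, was 2.001-fold lower in one copy (evm.TU.BraA10002735, autotetraploid mean 1026, doubled haploid mean 2053) and 3.29-fold lower in the other (evm.TU.BraA02002509, autotetraploid mean 96.9, doubled haploid mean 319). Both copies of each gene thus fell, but by unequal amounts.

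NAC019, NAC055 and NAC072 are close relatives that bind drought- and jasmonate-responsive promoters in Arabidopsis. NAC019 (evm.TU.BraA06001894) had authors' means of 2024 (autotetraploid) and 4519 (doubled haploid), 2.23-fold lower. All 4 listed copies of NAC055 fell. The copy with the most reads (evm.TU.BraA05002361) was 1.60-fold lower, with means of 272 (autotetraploid) and 436 (doubled haploid). For the other copies the reads of each library could be worked back from the means, and library values below are given in order of falling size factor within a group. Genes with such values had all passed the authors' test, and in 99.2% of these 3317 genes the groups did not overlap. The copy evm.TU.BraA01003819 had 6.92, 2.02 and 7.56 normalised reads in the autotetraploid libraries, against 82.4, 65.6 and 88.3 in the doubled haploid libraries. The copy evm.TU.BraA03003950 had 3.95, 5.04 and 8.64 in autotetraploid libraries, against 50.2, 47.2 and 59.9 in doubled haploid libraries. In both copies every autotetraploid library lay far under every doubled haploid one, and the means differed 14.3-fold and 8.92-fold. The remaining copy (evm.TU.BraA09001561), 12.2-fold lower, matched NAC055 only weakly, with an E-value of 6.3e-12. It had 0.988, 1.01 and 5.40 normalised reads in autotetraploid libraries and 31.4, 30.5 and 28.3 in doubled haploid libraries. Without the autotetraploid library at 5.40, it was 30.1-fold lower.

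NAC072, also called RD26, an activator induced by dehydration, was the member of this group with copies in both directions. The copy evm.TU.BraA03005726 was 3.12-fold lower, with authors' means of 203 (autotetraploid) and 634 (doubled haploid). A weakly counted copy (evm.TU.BraA01001908) had 19.8, 23.2 and 13.0 normalised reads in autotetraploid libraries and 35.8, 35.1 and 36.0 in doubled haploid libraries, 1.91-fold lower without overlap. The gene Novel00265, annotated as NAC072 isoform X2, was 1.64-fold higher, with means of 641 (autotetraploid) and 390.3 (doubled haploid) and an adjusted p of 1.7e-11 in the authors' deposited table. It was the only rise among the 12 genes.

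All 8 genes of the senescence and leaf ageing group fell, with a median 2.57-fold lower. Known activators and known repressors of senescence were both among them. The group follows the planned list of roles. Whether hits placed in other groups also act in senescence was not examined. NAC042 (JUNGBRUNNEN 1) was also planned for this group, but its genes carry another name and stand outside the 70. Its listed genes all rose, by 1.95-fold to 14.6-fold, and are described under other observations. The 14.6-fold rise rests on a doubled haploid mean of only 0.672 normalised reads. Of the activators, NAC016 (evm.TU.BraA05001833) had authors' means of 489 (autotetraploid) and 1302 (doubled haploid), 2.66-fold lower. NAC029 (NAP, evm.TU.BraA07003526), which drives chlorophyll loss in ageing leaves, was 1.58-fold lower, with means of 1035 (autotetraploid) and 1633 (doubled haploid). NAC092 (ORE1, evm.TU.BraA04001164), which promotes age-dependent senescence, had 31.6, 46.4 and 23.8 normalised reads in autotetraploid libraries and 85.1, 125 and 91.6 in doubled haploid libraries. Its groups did not overlap and its mean was 2.96-fold lower.

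Among the repressors, NAC083 (VNI2), which delays leaf ageing and restrains vessel formation, had the largest fall of a single copy. This copy (evm.TU.BraA03000591) had authors' means of 166 (autotetraploid) and 1128 (doubled haploid), 6.79-fold lower, with an adjusted p of 2.09e-149 in the authors' deposited table. Its second copy (evm.TU.BraA02000504) was 1.82-fold lower, with means of 553 (autotetraploid) and 1007 (doubled haploid). NAC090, which also holds senescence back, was lower in 3 copies. The copy evm.TU.BraA03001093 had means of 163 (autotetraploid) and 939.8 (doubled haploid), 5.76-fold lower, and evm.TU.BraA10002102 had means of 207 (autotetraploid) and 342 (doubled haploid), 1.65-fold lower. The third, evm.TU.BraA02001315, had 61.2, 67.6 and 60.5 normalised reads in autotetraploid libraries against 174, 155 and 142 in doubled haploid libraries, a 2.49-fold lower mean with no overlap.

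Membrane-tethered NAC genes fell in 12 of 16 cases and rose in 4, with a median 2.05-fold lower. These proteins are anchored by a transmembrane stretch and enter the nucleus once released. NAC062 (NTL6), which is released by cold and by stress of the endoplasmic reticulum, fell in all 4 copies, and the summed authors' means were 3.73-fold lower. The copy evm.TU.BraA06000721 had means of 1355 (autotetraploid) and 5778 (doubled haploid), 4.26-fold lower, and evm.TU.BraA06003124 had 524 (autotetraploid) and 2123 (doubled haploid), 4.05-fold lower. The other 2 copies were 2.78-fold (evm.TU.BraA06003846, autotetraploid mean 314, doubled haploid mean 874) and 2.34-fold lower (evm.TU.BraA09001927, autotetraploid mean 420.4, doubled haploid mean 982).

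NAC089, a regulator of cell death under stress of the endoplasmic reticulum, had 1 listed gene (evm.TU.BraA02001321) and a steep fall. Its autotetraploid libraries held 4.94, 12.1 and 9.72 normalised reads, against 110.2, 120.2 and 133 in the doubled haploid libraries. The mean was 13.6-fold lower. NAC053 (evm.TU.BraA01004289), which with NAC078 answers proteasome stress, was 4.07-fold lower, with authors' means of 248 (autotetraploid) and 1009.5 (doubled haploid). NAC078 had 4 copies, of which 3 fell between 1.75-fold and 2.29-fold. The falling copy with the most reads (evm.TU.BraA03000167) had means of 1212 (autotetraploid) and 2774 (doubled haploid). The others had means of 185 (autotetraploid) and 338 (doubled haploid) for evm.TU.BraA01004348, and 525 (autotetraploid) and 919 (doubled haploid) for evm.TU.BraA10001196. The fourth NAC078 copy (evm.TU.BraA03003683) rose 2.01-fold, with 44.5, 58.5 and 52.9 normalised reads in autotetraploid libraries and 40.3, 23.1 and 14.2 in doubled haploid libraries. Its groups stood apart by a narrow gap, and 1 doubled haploid library lay close to the autotetraploid ones.

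NAC013 and NAC017 carry signals from stressed mitochondria to the nucleus. NAC013 (evm.TU.BraA07001417) was 1.43-fold lower, with authors' means of 979.6 (autotetraploid) and 1404 (doubled haploid). Both NAC017 copies rose slightly, by 1.28-fold (evm.TU.BraA08000052, autotetraploid mean 679.9, doubled haploid mean 529.9) and 1.178-fold (evm.TU.BraA09004544, autotetraploid mean 629, doubled haploid mean 534). The second of these had an adjusted p of 0.0417 in the authors' deposited table, near the limit for listing. NAC069, known from salt and auxin responses of seeds, was split. The copy evm.TU.BraA09001584 was 1.28-fold lower, with means of 589 (autotetraploid) and 755 (doubled haploid), and evm.TU.BraA02002918 had 81.0, 73.6 and 62.6 normalised reads in autotetraploid libraries and 38.5, 36.1 and 37.1 in doubled haploid libraries, 1.95-fold higher. NAC040 (NTL8, evm.TU.BraA07001811), which links salt to germination and flowering, had 0.988, 4.03 and 4.32 normalised reads in autotetraploid libraries against 16.1, 9.25 and 8.72 in doubled haploid libraries, 3.65-fold lower.

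Genes grouped under organ boundaries and lateral roots fell in 12 of 12 cases, with a median 3.26-fold lower (CUC3 at its bound), and most of them had few reads. Of these, 7 are NAC100 genes, placed here by the list of roles, and a role of NAC100 in boundaries or roots was not examined. CUC2 (evm.TU.BraA10001426), which keeps young organs apart, had 0.988, 0 and 0 normalised reads in autotetraploid libraries and 9.86, 10.2 and 8.72 in doubled haploid libraries. With 1 read against 30, the mean was 29.1-fold lower (95% counting interval 4.69 to 1151). CUC3 (evm.TU.BraA01000964) was listed at 0 in autotetraploid leaves and had 5.38, 7.40 and 5.45 normalised reads in doubled haploid libraries, at least 5.93-fold lower when 3 reads are allowed for the whole autotetraploid group. With the counting error of its 19 doubled haploid reads taken in, the lower 95% counting limit was 4.39-fold. Both boundary genes were therefore seen in every doubled haploid library and in at most 1 autotetraploid library.

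NAC100 had 7 listed copies, more than any other hit, and all fell. The copy with the most reads in autotetraploid leaves (evm.TU.BraA02004283) had authors' means of 256 (autotetraploid) and 388 (doubled haploid), 1.52-fold lower. The copy evm.TU.BraA01004584 had 81.0, 76.6 and 95.02 normalised reads in autotetraploid libraries against 275, 305 and 304 in doubled haploid libraries, 3.50-fold lower. For evm.TU.BraA02000260 the values were 15.8, 17.1 and 21.6 in autotetraploid libraries, against 54.7, 64.7 and 45.8 in doubled haploid libraries, 3.03-fold lower. For evm.TU.BraA05003398 they were 47.4, 44.4 and 50.7 in autotetraploid libraries, against 117, 98.01 and 87.2 in doubled haploid libraries, 2.12-fold lower. These copies had every autotetraploid library under every doubled haploid one. The copy evm.TU.BraA03000895 had 6.92, 5.04 and 8.64 in autotetraploid and 16.1, 16.6 and 27.2 in doubled haploid libraries, 2.91-fold lower. The copy evm.TU.BraA10000152 had 1.98, 4.03 and 1.08 in autotetraploid libraries and 17.9, 14.8 and 19.6 in doubled haploid libraries, 7.38-fold lower, and 11.4-fold lower without the autotetraploid library at 4.03. The seventh copy, evm.TU.BraA03004095, had a single read, giving 0.988, 0 and 0 normalised reads in autotetraploid libraries and 3.58, 11.1 and 13.1 in doubled haploid libraries. The mean was 28.1-fold lower, with 95% counting limits of 4.35 and 1077. In the 6 copies with library values the groups did not overlap, as in 99.2% of the 3317 listed genes with library values.

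NAC021/22 (NAC1), an auxin-induced factor of lateral root formation, fell in 3 copies. The copy evm.TU.BraA08000876 was 1.79-fold lower, with authors' means of 164 (autotetraploid) and 293 (doubled haploid). Next to it by identifier number, evm.TU.BraA08000875 had 27.7, 10.1 and 17.3 normalised reads in autotetraploid libraries and 37.6, 42.5 and 28.3 in doubled haploid libraries. The highest autotetraploid library nearly reached the lowest doubled haploid one, and without the doubled haploid library at 42.5 the limma call of this gene was lost (limma adjusted p = 0.0614, against 0.0110 with all libraries and 0.00249 to 0.0614 over all alternatives). The copy evm.TU.BraA03005819 rested on 2 reads against 21, which made it 9.15-fold lower, with 95% counting limits of 2.41 and 86.9.

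In Arabidopsis, CUC2, NAC021/22, NAC092 and NAC100 are targets of microRNA164, which cuts their transcripts. Grouped by this after their values were seen, their 12 listed genes were all lower, with a median 3.00-fold lower, and 11 of them stand in the boundary and lateral root group. The microRNA itself was not measured.

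Secondary wall and xylem factors had 1 gene in each direction. NAC073 (SND2, evm.TU.BraA01000902), an activator of cellulose genes in fibres, had 14.8, 19.2 and 5.40 normalised reads in autotetraploid libraries and 43.9, 46.2 and 45.8 in doubled haploid libraries, 3.45-fold lower. NAC030 (VND7, evm.TU.BraA07004246), the master switch of vessel formation, had 18.8, 14.1 and 17.3 normalised reads in autotetraploid libraries and 7.17, 3.70 and 5.45 in doubled haploid libraries, 3.07-fold higher. Neither pair of groups overlapped, as in 99.2% of the 3317 listed genes with library values.

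The remaining hits, which include seed, nucleolar stress and DNA damage factors, held 7 of the 14 rises. Of 15 genes, 7 rose and 8 fell, close to the 50.0% of all listed genes in each direction. NAC008 (SOG1, evm.TU.BraA09003557), the central regulator of the response to DNA damage, had authors' means of 438 (autotetraploid) and 276 (doubled haploid), 1.59-fold higher. NAC056 and NAC018 (NARS1 and NARS2) act together in the seed coat. NAC018 (evm.TU.BraA06001896) rose 1.19-fold, with means of 1061 (autotetraploid) and 893 (doubled haploid). NAC056 rose 1.501-fold in the copy with the most reads (evm.TU.BraA05002358, autotetraploid mean 987, doubled haploid mean 658) and fell in the other copies. Of these, evm.TU.BraA01003820 had 84.0, 91.8 and 112 normalised reads in autotetraploid libraries against 123, 141 and 153 in doubled haploid libraries, 1.45-fold lower. The other, evm.TU.BraA03003951, had 5.93, 9.07 and 7.56 in autotetraploid libraries against 29.6, 32.4 and 37.1 in doubled haploid libraries, 4.39-fold lower.

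NAC082, a mediator of nucleolar stress, also had copies in both directions. The copy with a strong match (evm.TU.BraA10001111, E-value 1.4e-172) was 1.78-fold lower, with authors' means of 776 (autotetraploid) and 1379.9 (doubled haploid). A copy with a weak match (evm.TU.BraA03000407, E-value 8.4e-08) had 13.8, 11.1 and 11.9 normalised reads in autotetraploid libraries against 162, 130.4 and 163 in doubled haploid libraries, 12.4-fold lower. Another weak match (evm.TU.BraA02000309, E-value 7.6e-09) was 1.57-fold higher, with means of 221 (autotetraploid) and 141 (doubled haploid). Whether the weak matches are NAC genes was not examined.

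NAC094 had 4 copies and an even split. The copy evm.TU.BraA09006746 was 1.97-fold lower, with authors' means of 4438 (autotetraploid) and 8723 (doubled haploid), and evm.TU.BraA07000509 was 2.09-fold lower, with means of 163 (autotetraploid) and 342 (doubled haploid). Against these, evm.TU.BraA09005396 was 3.60-fold higher, with means of 299 (autotetraploid) and 83.1 (doubled haploid), and evm.TU.BraA06004754 was 1.72-fold higher, with means of 1099 (autotetraploid) and 640.3 (doubled haploid). For NAC041 the library values of evm.TU.BraA05000282 were 10.9, 6.05 and 30.2 in autotetraploid and 48.4, 53.6 and 31.6 in doubled haploid libraries, 2.83-fold lower. The highest autotetraploid value came within 2 normalised reads of the lowest doubled haploid value, and without that autotetraploid library the gene was 5.27-fold lower. A second NAC041 copy (evm.TU.BraA03000638, E-value 1.1e-23) fell 2.45-fold, with 32.6, 30.2 and 44.3 normalised reads in autotetraploid libraries against 96.8, 78.6 and 87.2 in doubled haploid libraries. The third copy (evm.TU.BraA04002273) rose 1.49-fold, with 71.1, 85.7 and 89.6 in autotetraploid libraries against 52.0, 47.2 and 66.5 in doubled haploid libraries. The gap between its groups was narrow.

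The 5 genes in no role group comprised 4 falls and 1 rise. Both NAC061 copies fell, by 2.34-fold (evm.TU.BraA06000546) and 2.14-fold (evm.TU.BraA06004039, authors' autotetraploid mean 113, doubled haploid mean 242). The first held 68.2, 72.6 and 41.0 normalised reads in autotetraploid libraries and 151, 142 and 132 in doubled haploid libraries. The gene matching the rice factor ONAC010 (evm.TU.BraA01004585) fell 1.45-fold, with means of 598 (autotetraploid) and 869.5 (doubled haploid). The largest rise of the family was a weak match to NAC005 (evm.TU.BraA08002838, E-value 1.3e-08), 4.11-fold higher, with 34.6, 27.2 and 54.0 normalised reads in autotetraploid libraries and 8.96, 8.32 and 10.9 in doubled haploid libraries. The other NAC005 match, evm.TU.BraA10002800 (E-value 6.1e-26), fell 6.23-fold. It had 17.8, 13.1 and 11.9 in autotetraploid libraries against 100.4, 88.8 and 77.4 in doubled haploid libraries.

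**Figure D3:**
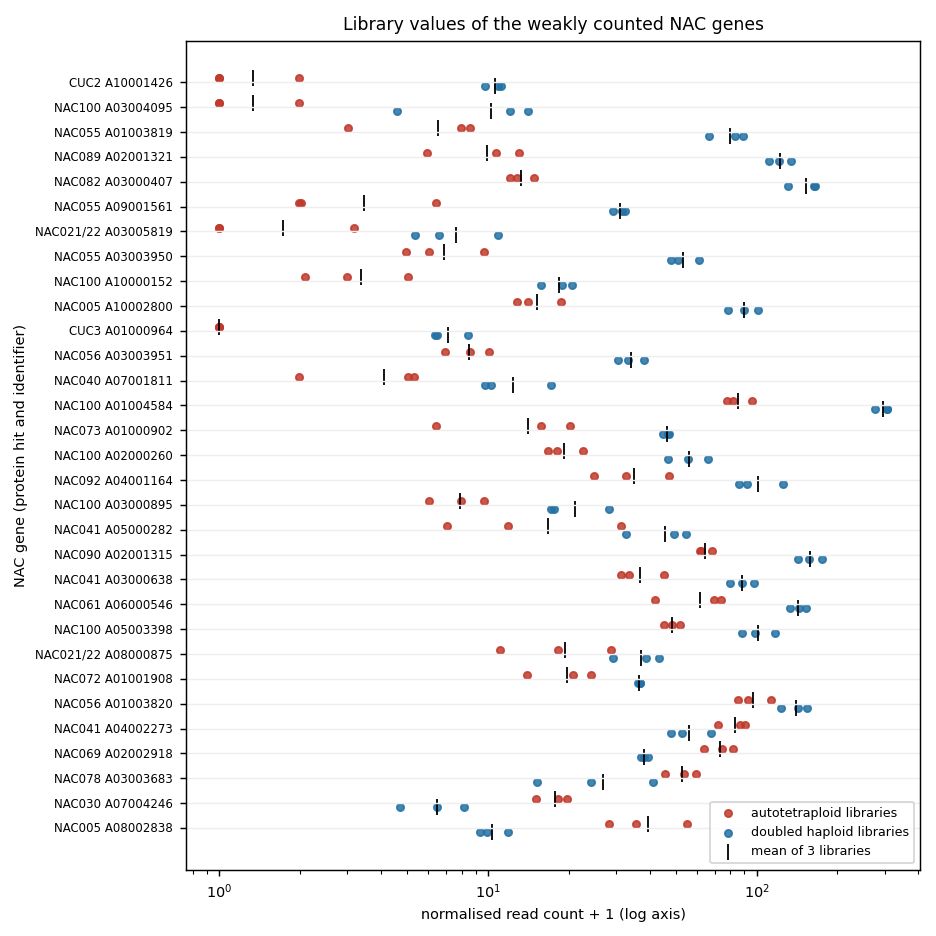
Normalised read count plus 1 (x axis, log scale) in each of 3 autotetraploid (red) and 3 doubled haploid libraries (blue) for the 31 NAC genes whose reads per library could be worked back (y axis), with the mean of each group as a black bar. In none of the 31 genes do the groups overlap. The gap is narrow for several, among them NAC041 A05000282 and A04002273, NAC021/22 A08000875, NAC056 A01003820 and NAC078 A03003683. The groups did not overlap in 99.2% of all 3317 listed genes with library values.

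Library values were available for 31 of the 70 genes, those with a mean under 100 in autotetraploid and under 300 in doubled haploid leaves. In all 31 the groups stood apart, 26 lower and 5 higher. The groups also stood apart in 99.2% of the 3317 genes with library values, with all autotetraploid libraries lower in 66.1%. All of these genes had been selected by the authors' test. Likewise limma called all 31 at an adjusted p under 0.05, and called 66.6% of those 3317 genes lower and 33.4% higher, so that it separated no gene from the others. Its use lay in the errors, but these come only from genes selected by a test and may be too small. On the scale of log2 of the normalised count plus 1, NAC089 changed by -3.69 with a standard error of 0.28, and the NAC082 gene evm.TU.BraA03000407 by -3.53 with a standard error of 0.18. The 2 largest standard errors were 0.49 for the NAC021/22 gene with 2 reads and 0.48 for the NAC100 gene with 1 read, whose changes on this scale were -2.30 and -2.87.

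Copies of the same hit moved by different amounts, and in some hits in different directions. Since 80.0% of the 70 NAC genes were lower, copies can share a direction by that share alone. Whether copies agreed more often than this was not tested. Of 33 hits, 18 had 2 or more listed copies, together 55 genes. In 9 of these hits all copies fell (29 genes), in 1 (NAC017) both rose, and in 8 the copies differed in direction. The 8 were NAC005, NAC041, NAC056, NAC069, NAC072, NAC078, NAC082 and NAC094. The splits of NAC005 and NAC082 rest on matches with an E-value above 1e-30. That of NAC072 rests on Novel00265, whose match carries no E-value. Among hits with a single listed gene, 12 fell and 3 rose. Where only copies with both means of at least 100 were kept, 9 hits had 2 or more copies, and 3 of these (NAC072, NAC082 and NAC094) differed in direction. Among copies that all fell, NAC100 spread over 4.21 on the log2 scale, but this rests on the copy with 1 read in autotetraploid leaves; its other copies lay between -2.88 and -0.60. NAC055 spread over 3.16 and NAC061 over 0.13. Copies missing from the table were not analysed, and near-identical copies may share reads.

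**Figure D4:**
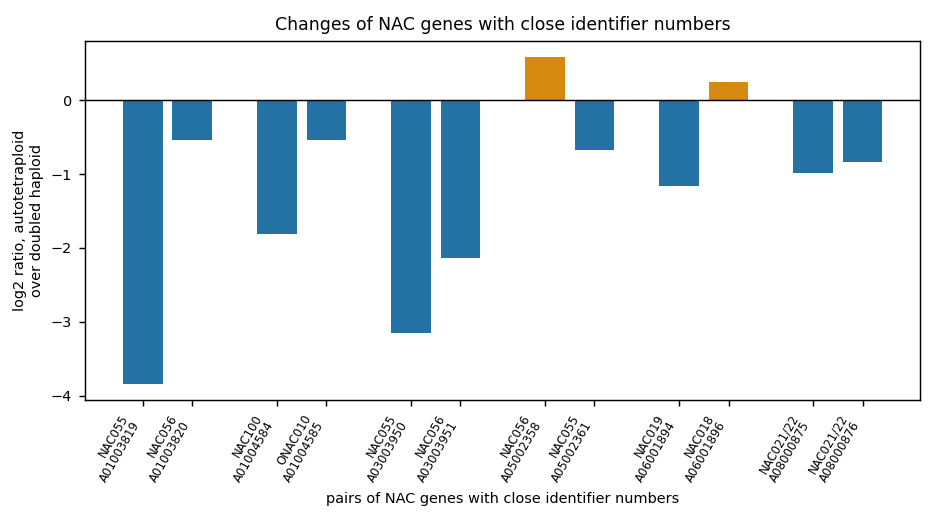
Log2 ratio, autotetraploid over doubled haploid (bars), for the 6 pairs of NAC genes whose identifier numbers lie within 3 of each other. Blue bars are falls and orange bars rises; each NAC055 bar reaches lower than the NAC056 bar beside it.

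In 6 pairs, NAC genes carried identifier numbers within 3 of each other on the same chromosome code. NAC055 and NAC056 formed 3 such pairs, and in each the NAC055 copy had the lower log2 ratio. The ratios were -3.84 and -0.53 for the pair coded A01, -3.16 and -2.13 for A03, and -0.68 and 0.59 for A05. NAC019 and NAC018 were paired on A06, with -1.16 and 0.25. The stress-induced member of each of these 4 pairs was thus the lower one. The NAC021/22 pair on A08 had ratios of -0.98 and -0.84, and NAC100 and ONAC010 on A01 had -1.81 and -0.54. The order of identifiers was taken as deposited and was not checked on a genome.

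Of all listed genes with the chromosome code A01, 72.1% were lower, and all 9 NAC genes coded A01 fell. Without them the family still had 47 falls and 14 rises. All 7 NAC genes coded A10 fell too, where 48.3% of the listed A10 genes were lower, and on A03 the count was 11 of 12 against 44.6%. The 14 rises were spread over 8 codes and 1 gene without a code.

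Genes picked by name as acting with NAC factors did not share one direction. Of 23 listed genes picked by name for senescence and chlorophyll loss, 13 fell and 10 rose. The rises include genes for bifunctional nuclease 1 and 2, by 1.23-fold to 1.39-fold, whose part in senescence was not checked. A SAG12 gene (evm.TU.BraA06000198), a protease of senescing leaves, had authors' means of 4.86 (autotetraploid) and 4804 (doubled haploid), while SAG39 (evm.TU.BraA01003629) was 5.86-fold lower. The other 3 listed SAG12 genes, named after their values were seen, rose but had far fewer reads than the first had in doubled haploid leaves. They rose 5.75-fold (evm.TU.BraA07001815, autotetraploid mean 53.3, doubled haploid mean 9.27), 3.61-fold (evm.TU.BraA06000730, autotetraploid mean 48.8, doubled haploid mean 13.5) and 1.80-fold (evm.TU.BraA06003852, autotetraploid mean 81.4, doubled haploid mean 45.3). Of 26 genes of the ethylene and abscisic acid input, 16 rose and 10 fell. Those with the smallest adjusted p were abscisic acid receptors, PYL8 (evm.TU.BraA03001542, 3.23-fold higher) and PYL9 (evm.TU.BraA07002531, 3.53-fold lower). Of 9 genes picked by name as mitochondrial retrograde targets, 5 rose and 4 fell. The falls include UPBEAT1 (evm.TU.BraA05004419, 3.08-fold lower), whose place among such targets was not checked. Alternative oxidase 3 (evm.TU.BraA05001715) was 3.67-fold lower and the glycosyltransferase UGT74E2 (evm.TU.BraA10003156) 2.64-fold higher. Of 8 genes picked by name as jasmonate targets, 5 rose and 3 fell. Lipoxygenase 2 (evm.TU.BraA07002604) was 5.59-fold higher and lipoxygenase 3 (evm.TU.BraA08003342) 148-fold lower. The rises include MYC2 (evm.TU.BraA05001756, 1.15-fold higher), and whether it is a target of NAC factors was not checked. Secondary wall targets, which are the same 6 genes as the xylem markers above, split into 3 rises and 3 falls. Those with the smallest adjusted p were laccase 5 (evm.TU.BraA04003044), listed at 0 in autotetraploid leaves, and laccase 11 (evm.TU.BraA02000094), 1.80-fold lower.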

How the data were processed

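The submitters' processing notes name HTSeq 0.6.1 for software, together with TopHat2 2.0.12, DESeq 1.18.0 and Bowtie2 2.2.3. No genome build was named. The authors deposited 1 table, whose signal columns hold normalised counts of reads, averaged over the libraries to 1 mean per group and gene, per the file headers and values. In the deposited log2 column, a positive value is higher in autotetraploid leaves, and it differs from the ratio of the means by less than 5e-05. The deposited p-value columns are the authors' test, and only genes with an adjusted p under 0.05 are held. The labels speak of FPKM, which the file headers do not show.

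Group means are sums of whole reads over size factors, so reads per library were worked back where exactly 1 combination of whole reads matched the mean within its rounding. This held for all 3385 autotetraploid values above 0 and under 100 and all doubled haploid values under 300. These libraries carry no replicate number. For 3317 genes, log2 of the normalised count plus 1 was fitted with limma 3.58.1 (with trend) under R 4.3.3, with Benjamini-Hochberg adjustment over all of them. Genes at 0 were set to 3 reads in their group, which is a mean of 1.02 in autotetraploid leaves. Intervals are exact, from the binomial split of the reads, and cover counting error only. The procedures were tested on simulated data, in which genes were not selected by a test beforehand. Tables were read with pandas 2.3.3 under Python 3.11.15, intervals came from SciPy 1.17.1, and NumPy 2.4.6 and matplotlib 3.10.9 served for arrays and plots.

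Every member could be named by the rule set for this work, and of other lists the 2 genes with the smallest adjusted p. AGL80, the second laccase 5 gene, 3 SAG12 genes, UPBEAT1, MYC2 and the bifunctional nuclease genes were named after their values were seen. Members, lists and role groups were chosen with earlier results of these data known. Of 13225 identifiers, 0 had an entry in the RefSeq gene table, so no sequence is printed.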

Additional observations from a re-analysis of the deposited data

How the results depend on the processing

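NAC genes were lower in 80.0% of 70 cases. The share was 90.7% (39 lower, 4 higher) among genes changed at least 2-fold. Under the other alternatives it ran from 76.2% (61 of 80 with NAC proteins under other names) to 85.5% (47 of 55 at an adjusted p under 0.001), and was 77.0% without A01 genes, 84.8% with 1 gene per hit and 81.2% without matches of an E-value above 1e-30, an alternative chosen after seeing the data. The median log2 ratio of -1.13 ran from -1.41 to -0.98. Hits with copies in both directions numbered 3 in place of 8 once both means had to reach 100, where 9 in place of 18 hits had 2 or more copies. With limma, leaving out 1 library at a time kept 30 to 31 of 31 calls. The exception was the NAC021/22 gene evm.TU.BraA08000875. All genes in the fit had passed the authors' test beforehand. With all libraries, limma called 66.6% of those 3317 genes lower and 33.4% higher. The number of calls kept therefore cannot show that the NAC result is robust. In an alternative added after seeing the data, 3 ratios of means moved by over 1.5 times when 1 autotetraploid library was left out, to 5.27 (NAC041 evm.TU.BraA05000282), 30.1 (NAC055 evm.TU.BraA09001561) and 11.4 (NAC100 evm.TU.BraA10000152). CUC2, NAC100 evm.TU.BraA03004095 and NAC021/22 evm.TU.BraA03005819 had no autotetraploid reads left without 1 library. Only 23 NAC genes could be tested with both means under 100, an alternative added later, and all were called. These genes too had been selected by the authors' test. edgeR and DESeq2 were planned but not run, because the reads were worked back from means for part of the genes only. No paired analysis was possible because the columns carry no replicate numbers. Depth limits CUC2, CUC3 and the copies of NAC100 and NAC021/22 with at most 2 reads in autotetraploid leaves, whose folds are known only within wide counting intervals or as a bound.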

Other observations

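NAC proteins whose description carries another name stand outside the 70 genes, and 10 of them were listed, 5 higher and 5 lower. All 4 genes matching JUNGBRUNNEN 1, a NAC factor (NAC042) that extends leaf life in Arabidopsis, rose. Their authors' means were 786 (autotetraploid) and 404 (doubled haploid) for evm.TU.BraA04003093, 318 (autotetraploid) and 61.8 (doubled haploid) for evm.TU.BraA03002368, and 122 (autotetraploid) and 14.4 (doubled haploid) for evm.TU.BraA05004126, which were 1.95-fold, 5.14-fold and 8.43-fold higher. The fourth, evm.TU.BraA01004179, had means of 9.79 (autotetraploid) and 0.672 (doubled haploid), 14.6-fold higher. This fold rests on few reads in doubled haploid leaves, and no counting interval was computed for it. The gene carries the code A01, where 72.1% of listed genes fell.

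All 4 genes matching ATAF2, a wound- and pathogen-induced relative of ATAF1, fell. The falls were 2.71-fold (evm.TU.BraA03000403, authors' autotetraploid mean 1136, doubled haploid mean 3081), 1.83-fold (evm.TU.BraA02000304, autotetraploid mean 2141, doubled haploid mean 3913), 1.79-fold (evm.TU.BraA10001101, autotetraploid mean 643, doubled haploid mean 1152) and 4.13-fold (evm.TU.BraA09003197, autotetraploid mean 12.5, doubled haploid mean 51.6). A gene matching FEZ, a root cap factor in Arabidopsis, fell 3.20-fold (evm.TU.BraA03004615, autotetraploid mean 2070.4, doubled haploid mean 6616), and its match had an E-value of 2.3e-48. SOMBRERO, which acts with FEZ in the root cap, had 1 listed gene (evm.TU.BraA07003633), 1.87-fold higher, with means of 97.1 (autotetraploid) and 52.0 (doubled haploid).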
